A study of Homo sapiens with 10 samples.

Results

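The genes described here are 32 genes of glucose breakdown and of the response to low oxygen, out of 25593 gene entries in each deposited file. They were taken by symbol from a fixed list of 33 symbols, of which PKM and PKM2 are the same gene; the files carry it as PKM2, and all 32 passed the filter on low values that left 14813 entries for testing. The set holds the glucose transporters SLC2A1 and SLC2A3, 17 enzymes from hexokinase to lactate dehydrogenase, the regulatory kinases PDK1, PFKFB3 and PFKFB4, and 10 genes widely used as markers of the hypoxia response.

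The data were RNA-seq profiles of 10 libraries from a pair of U2OS lines (human osteosarcoma) kept in DMEM with 10% serum. A line made with a control CRISPR construct is labelled p53 WT, and a second CRISPR line is labelled p53 KO. For 96 h each line carried either control siRNA or siRNA to SET, whose protein handles histones, inhibits the phosphatase PP2A and binds p53. The groups were WT-labelled cells with control siRNA (n = 3), WT-labelled cells with SET siRNA (n = 3), KO-labelled cells with control siRNA (n = 2) and KO-labelled cells with SET siRNA (n = 2). Each genotype rests on 1 selected line, so a difference between the lines cannot be told apart from a difference between clones, and the series text names SET as the CRISPR target in a sentence that goes on to describe a p53 knockout line. Libraries of a group are named biological replicates, but nothing tells whether they were separate cultures, so a p-value speaks only of library-to-library spread, which may be technical. No group was grown in low oxygen according to the labels.

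Glycolysis splits glucose into pyruvate in the cytosol, and lactate dehydrogenase turns pyruvate into lactate, which renews the NAD+ that GAPDH needs. Hypoxia-inducible factor (HIF) is a transcription factor whose alpha subunits are marked for destruction by oxygen-dependent prolyl hydroxylases; when oxygen falls, HIF binds short elements with a core of ACGTG or GCGTG and raises glucose transporters, many glycolytic enzymes and genes such as VEGFA and CA9. p53 is known to lower glucose uptake and glycolytic flux through several targets, among them TIGAR, and tumour cells often run glycolysis at a high rate even with oxygen present.

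SET mRNA fell from 124 ± 2.64 FPKM (SD, n = 3) to 12.5 ± 0.656 (n = 3) in WT-labelled cells and from 164 ± 8.22 (n = 2) to 14.9 ± 0.0302 (n = 2) in KO-labelled cells. CDKN1A, the p53 target that encodes the cell cycle inhibitor p21, stood at 162 ± 8.42 and 720.3 ± 21.2 in the WT-labelled groups and at 6.67 ± 0.231 and 19.4 ± 0.111 in the KO-labelled groups. FPKM are fragment counts scaled by gene model length and sequencing depth, and the authors' confidence intervals imply 14283625 to 21769841 fragments per library. Of 8 markers of mesenchymal and bone cells 5 reached FPKM 1 in every library, led by VIM, with SPARC and COL1A1 next, while COL1A2 and TWIST1 stayed under 1. The summed level of those 8 was 1883 to 1930 FPKM in WT-labelled control libraries and 1189 to 1306 with SET siRNA, against 1968 to 2086 and 1471 to 1606 in KO-labelled cells. Of 7 epithelial markers 4 reached FPKM 1 in every library, led by KRT8 and KRT18, with sums of 665 to 699.9, 500.3 to 513, 288 to 327 and 278 to 281 in the same order. All 6 blood markers and all 5 endothelial markers stayed under FPKM 1 in every library. Both sums move with the groups, and their part in the results below was not tested. In bulk RNA a change in the share of cells that express a gene and a change in RNA per cell cannot be told apart.

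Before the groups are compared, a pattern across the numbered libraries has to be described, because it touches many of these genes, 7 of the 22 of glycolysis and 5 of the 10 hypoxia genes. Library 1 held the highest FPKM of its group in all 4 groups for 12 of the 32 genes (37.5%), and for 897 of all 14813 tested genes (6.06%). The 12 were SLC2A1, HK2, PFKL, ALDOA, ALDOC, ENO2, PFKFB4, CA9, BNIP3, EGLN3, NDRG1 and ANKRD37. For 9 of them (28.1% of the 32) library 2 was also the lowest of its group everywhere, as it was for 205 tested genes (1.38%).

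CA9, which encodes a membrane carbonic anhydrase and is among the most oxygen-sensitive genes known, showed the widest gap. Its FPKM was 1.51, 0.332 and 1.19 in libraries 1 to 3 of WT-labelled control cells, 2.05, 0.218 and 0.655 with SET siRNA, 1.43 and 0.0854 in KO-labelled control cells, and 2.85 and 1.43 with SET siRNA. Library 1 was thus 4.55, 9.39, 16.8 and 1.99 times library 2 within the 4 groups, and the groups overlapped in WT-labelled cells. The authors' interval on CA9 was wide, with a half-width of 25.0 to 121% of the value. PFKFB4, which adjusts the small-molecule activator of phosphofructokinase, gave ratios of 1.69, 1.64, 1.43 and 1.32, and HK2, the hexokinase that HIF induces, gave 1.47, 1.33, 1.13 and 1.11. NDRG1, a stress and differentiation gene that rises in hypoxia, gave 1.55, 1.66, 1.17 and 1.12. Among 33 other hypoxia genes tested, 9 were highest in library 1 of every group (DDIT4, INSIG2, P4HA2, PLOD1, KDM4B, STC1, GYS1, PPFIA4 and FUT11), against 1 of 28 other glycolysis genes (BSG). The labels do not say that a number marks a shared culture day or batch, and the source of the pattern was not tested. The calls of the 32 genes and the counts of calls over all genes were also computed without library 1 of every group, a setting chosen after seeing the data; the sums, shares and counts of neighbouring or other listed genes below use all 10 libraries.

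**Figure D1:**
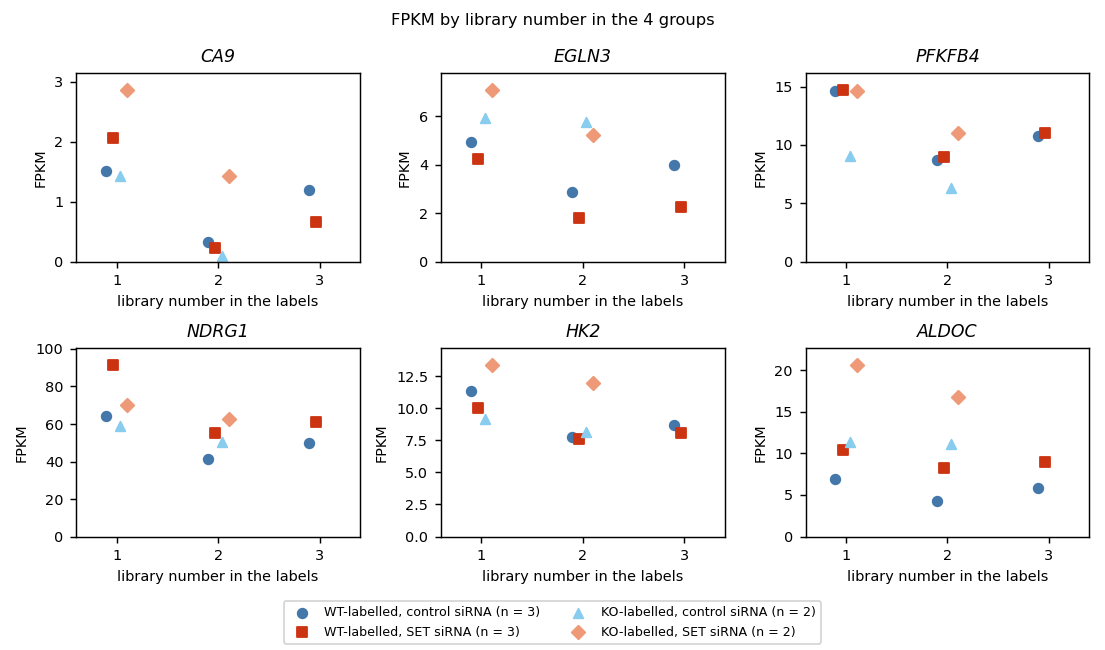
FPKM (vertical axes) of 6 genes against the library number in the labels (horizontal axes), 1 point per library, with marker shape and colour giving the group; points are shifted sideways slightly for legibility. The 6 genes were picked from the 12 for which library 1 was the highest in every group, so that order was fixed by the choice. CA9 falls to 0.0854 in library 2 of the KO-labelled control cells.

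Promoters of these 12 genes are shown because the genes varied together across the numbered libraries. RefSeq promoters on GRCh38.p14, 250 bases before to 50 after a start site, were at hand for 28 of the 32 genes (51 promoters, 10 genes with several). The letters ACGTG, read on both strands, occurred in 21 of the 51 (41.2%) and in 21.4% of all 35116 promoters in the table; GCGTG occurred in 41.2% against 36.5%, and CACGTG, which contains ACGTG, in 15.7% against 7.3%. The median GC content of the 51 was 68.7% against 58.7% over all, and a match is a description of letters, not a bound site. Of the 28 genes with a promoter only 2 lacked both motifs, so most genes of the set hold a match, whether or not library 1 was highest. Of the 12 genes, 9 carried ACGTG or GCGTG upstream of a start, and 29 bases centred on 1 match are printed 5′ to 3′ on the gene's own strand. The only match of SLC2A1 lay after its start site. Capitals mark each ACGTG or GCGTG inside the printed stretch (CACGT and CACGC are these letters read on the other strand, and CACGTG holds ACGTG on both).
HK2, chr2:74834067-74834095, + strand: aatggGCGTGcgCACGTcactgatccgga
PFKL, chr21:44299877-44299905, + strand: tgctcagggcccGCGTGacattgcacagg
ALDOA, chr16:30064374-30064402, + strand: ggcagggaggcCACGTGatccgagtcccc
ALDOC, chr17:28576907-28576935, - strand: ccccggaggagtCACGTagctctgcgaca
ENO2, chr12:6914450-6914478, + strand: acccgcgctcgtACGTGcgcctccgccgg
PFKFB4, chr3:48556953-48556981, - strand: tgagttgggcatGCGTGgtcggaggccgg
CA9, chr9:35673898-35673926, + strand: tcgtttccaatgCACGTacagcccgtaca
BNIP3, chr10:131982040-131982068, - strand: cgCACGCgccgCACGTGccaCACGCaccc
ANKRD37, chr4:185396686-185396714, + strand: cagtgtttgtgtACGTGcggccgtggcgg
Counted from the start site, the central match begins at -18 in CA9, -28 in ALDOC and -48 in HK2, and between -166 and -111 in the other 6. The printed match was the upstream ACGTG nearest a start site, or GCGTG where a gene had no such ACGTG. Its closeness to the start was thus partly fixed by the choice, and several genes hold further matches. EGLN3, which was also highest in library 1 throughout, and PGAM1, which was not, had neither motif in any promoter of the table, and no promoter was at hand for SLC2A3, VEGFA, BNIP3L and NDRG1.

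In WT-labelled control cells the most abundant transcripts of the set were GAPDH at 3090 ± 124 FPKM (n = 3), PKM2 at 1827 ± 56.6 and ENO1 at 1685 ± 32.5. These made up 31.0, 18.3 and 16.9% of the summed FPKM of the 17 enzymes, which was 9973 ± 298. The sum was 8719 ± 155 in WT-labelled cells with SET siRNA (n = 3), 7652 ± 467 in KO-labelled control cells (n = 2) and 7714 ± 357 in KO-labelled cells with SET siRNA (n = 2). As a share of the FPKM of all genes this was 1.92, 1.66, 1.49 and 1.47%. Leaving GAPDH out gave 6883 ± 173, 6130 ± 104, 6050 ± 281 and 6162 ± 250. The 10 hypoxia genes summed to 202 ± 20.9, 237 ± 34.8, 238 ± 3.29 and 260 ± 14.1 in the same order.

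**Figure D2:**
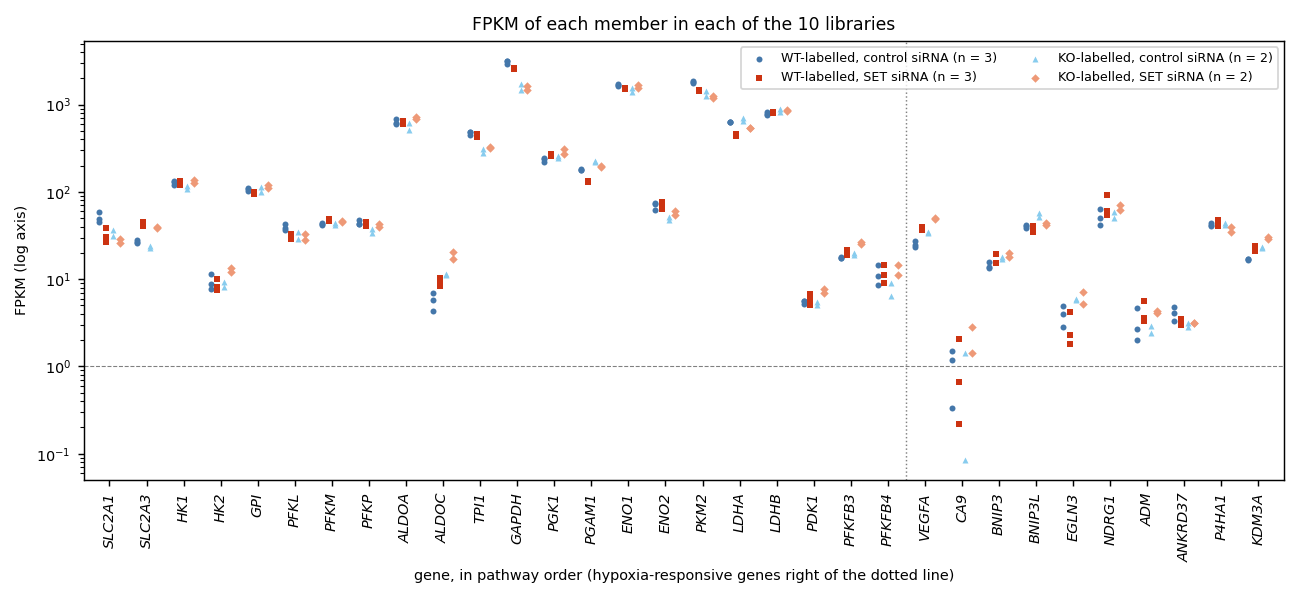
FPKM of the 32 genes in the 10 libraries on a log axis, 1 point per library and 1 colour and shape per group, with genes ordered by role. GAPDH, PKM2 and ENO1 lie highest, at or above 1174 FPKM in all libraries, and CA9 lies lowest and is the most scattered.

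SET siRNA in WT-labelled cells moved the set in both directions: 7 of the 32 genes rose and 7 fell, while 18 did not pass the test. Of all tested genes 54.8% were called, 30.8% higher and 24.0% lower, so the share of the 32 that was called is below the background. The median log2 change of the 32 was -0.02, beside 0.04 over all genes tested. Groups did not overlap for 15 of the 32, beside 64.3% of all genes. Changes are differences of log2(FPKM + 1), which understate the change of low genes, and a gene is called at a Benjamini-Hochberg adjusted p below 0.05 over all tested genes (limma).

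At the cell's entrance the transporters moved in opposite directions. SLC2A1 (GLUT1, the ubiquitous basal transporter) was at 58.1, 45.4 and 48.8 FPKM with control siRNA and at 38.1, 26.5 and 30.2 with SET siRNA, and fell by 0.67 ± 0.13 (log2, SE; adjusted p = 0.00224). Every SET siRNA library lay below every control library. SLC2A3 (GLUT3, a high-affinity transporter) was at 28.5, 26.7 and 25.8 and then 44.6, 41.2 and 42.2 FPKM, and rose by 0.64 ± 0.05 (adjusted p = 1.04e-05). The SLC2A1 share of the summed FPKM of the 2 transporters went from 65.2 ± 2.10% to 42.3 ± 3.50%, so that SLC2A3 became the more abundant transcript.

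Among the enzymes, the hexokinases HK1 (128 ± 7.66 and 125 ± 6.16 FPKM) and HK2 (9.25 ± 1.86 and 8.56 ± 1.30), which trap glucose as its phosphate, did not pass the test. Phosphofructokinase, the committed step, is built from 3 gene products. PFKL, the liver type, was at 42.5, 38.5 and 36.4 FPKM and then 32.6, 28.6 and 30.8, and fell by 0.34 ± 0.09 (adjusted p = 0.0130). PFKM, the muscle type, was at 42.6, 43.6 and 42.2 and then 48.0, 46.9 and 49.1, and rose by 0.16 ± 0.04 (adjusted p = 0.00654). PFKP, the platelet type, stood at 44.5 ± 2.73 and 42.6 ± 2.26 and did not pass. Groups were separate for PFKL and PFKM and overlapped for PFKP. ALDOC, the brain-type aldolase, is a minor form here at 6.91, 4.33 and 5.82 FPKM and then 10.4, 8.24 and 8.97, and it rose by 0.62 ± 0.14 (adjusted p = 0.00457). ALDOA, which supplied at least 97.4% of the aldolase transcript in each group mean, had a log2 change of 0.00 ± 0.07.

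Of 6 enzymes of the lower pathway, 4 fell and 1 rose, beside 24.0% lower and 30.8% higher over all tested genes. PGAM1, the phosphoglycerate mutase of most tissues, was at 182, 179.7 and 179.7 FPKM with control siRNA and at 131, 129.9 and 133 with SET siRNA, a fall by 0.46 ± 0.03 (adjusted p = 5.24e-06). The libraries of each group lay within a few FPKM of each other and the groups were far apart. PKM2, the row of the whole pyruvate kinase gene with its splice forms not separated, was at 1881, 1768 and 1831 and then 1457, 1423 and 1459, and fell by 0.34 ± 0.06 (adjusted p = 0.00086). The authors' status for PKM2 was a failed estimate in SET siRNA libraries 1 and 3, where it is listed at 1457 and 1459 FPKM beside 1423 in library 2. GAPDH fell by 0.25 ± 0.07 (adjusted p = 0.0119) from 3090 ± 124 to 2590 ± 56.6, and ENO1 by 0.14 ± 0.05 (adjusted p = 0.0451) from 1685 ± 32.5 to 1526 ± 24.4. PGK1 rose by 0.18 ± 0.06 (adjusted p = 0.0317), but its entry overlaps LOC100652805 over 882 bases, an entry listed at 234 to 304 FPKM, so its reads may be shared. GAPDH, ENO1, LDHA and PGAM1 have processed copies elsewhere in the genome, which the authors' counting could split from them.

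LDHA, which favours the step from pyruvate to lactate, was at 625, 631 and 627 FPKM and then 455, 441 and 435, and fell by 0.50 ± 0.04 (adjusted p = 1.12e-05). LDHB, which favours the reverse step, was at 751, 771 and 815 and then 803, 815 and 818 and did not pass (0.06 ± 0.05, adjusted p = 0.310). The LDHA share of the lactate dehydrogenase transcript was 44.6 ± 1.02% and then 35.3 ± 0.744%, with no overlap between the libraries. Of the regulators, PFKFB3, the strongest producer of phosphofructokinase activator, rose by 0.18 ± 0.05 (adjusted p = 0.0158) from 17.6 ± 0.255 to 20.1 ± 1.31 FPKM, while PFKFB4 and PDK1, the kinase that switches off pyruvate dehydrogenase, did not pass.

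Of the 10 hypoxia genes 2 rose, none fell and 8 did not pass, beside 30.8% higher and 24.0% lower over all tested genes. VEGFA, the angiogenic growth factor, was at 27.3, 23.5 and 24.5 FPKM and then 39.3, 36.7 and 38.1, and rose by 0.58 ± 0.06 (adjusted p = 3.13e-05). KDM3A, a histone H3 lysine demethylase that HIF induces, was at 17, 16.6 and 17.2 and then 23.7, 21.2 and 21.8, and rose by 0.37 ± 0.05 (adjusted p = 0.000208). Every SET siRNA library lay above every control library for these 2 genes. NDRG1 was at 64.1, 41.4 and 49.6 and then 91.3, 55.0 and 61.2; each numbered library was higher with SET siRNA, but the groups overlapped and the change did not pass (0.40 ± 0.20, adjusted p = 0.111). For CA9, EGLN3, ADM and ANKRD37 the levels were under 6 FPKM, and the changes lay between -0.42 and 0.35. Median-of-ratios scaling gave 5 rises and 9 falls in place of 7 and 7, with PGK1 (adjusted p = 0.0884) and PFKFB3 (0.050) no longer called. The calls of ENO1 (without any of the 6 WT-labelled libraries, adjusted p = 0.0686 to 0.126), PGK1 (without control library 1 or 2 or SET siRNA library 1 or 3, 0.0535 to 0.114), PFKFB3 (without control library 2 or SET siRNA library 3, 0.0507 and 0.0525), GAPDH (0.111 with quantile normalization, 0.0510 without a filter) and PFKM (0.0572 without library 1 of every group) depended on those settings.

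**Figure D3:**
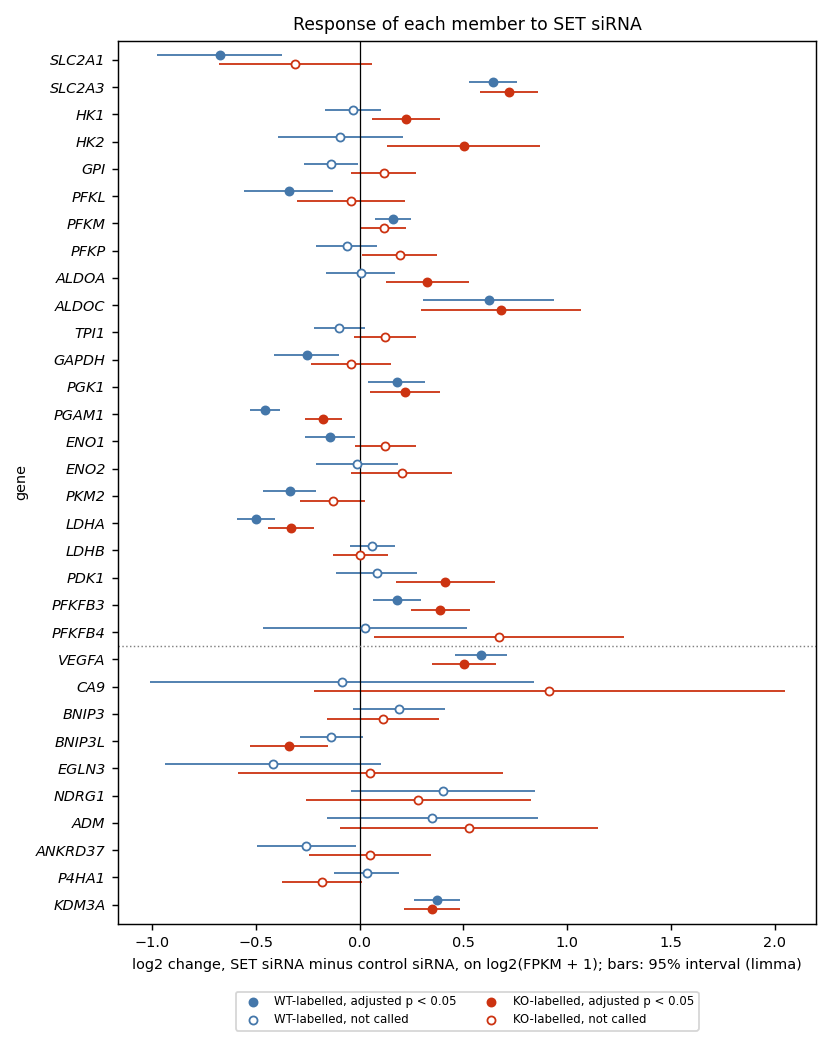
Log2 change of FPKM + 1 with SET siRNA against control siRNA for the 32 genes, in WT-labelled and in KO-labelled cells, with 95% intervals from limma; filled points passed the test and hollow points did not. PGAM1 and LDHA lie left of 0 and SLC2A3, ALDOC, VEGFA and KDM3A right of 0 in both lines, and most enzymes lie further to the right in KO-labelled cells.

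In KO-labelled cells SET siRNA raised 10 of the 32 genes, lowered 3 and left 19 without a call. Of all tested genes 37.6% were called, 19.8% higher and 17.9% lower. The median log2 change of the 32 was 0.16, beside 0.02 over all genes tested, and the groups did not overlap for 23 of the 32, beside 67.5% of all genes. Quantile normalization gave 7 rises and 4 falls.

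The genes called in both lines moved the same way in both. SLC2A3 was at 22.5 and 24.2 FPKM with control siRNA and at 39.0 and 39.2 with SET siRNA, a rise by 0.72 ± 0.06 (adjusted p = 5.04e-05). VEGFA went from 34.9 and 34.0 to 48.5 and 49.9 (0.50 ± 0.07, adjusted p = 0.000581), KDM3A from 22.7 and 23.4 to 30.3 and 28.9 (0.35 ± 0.06, adjusted p = 0.00209). PFKFB3 went from 20.2 and 18.9 to 26.3 and 25.5 (0.39 ± 0.06, adjusted p = 0.0015). No library of one group reached into the other for these 4 genes. ALDOC rose by 0.68 ± 0.17 (adjusted p = 0.0129) from 11.4 and 11.1 to 20.6 and 16.8 FPKM, and PGK1 by 0.22 ± 0.07 (adjusted p = 0.0457). LDHA was at 657 and 706 FPKM and then 546 and 538, and fell by 0.33 ± 0.05 (adjusted p = 0.000927). PGAM1 was at 224 and 218 and then 197 and 193, and fell by 0.18 ± 0.04 (adjusted p = 0.00755). In total 6 genes were called higher in both lines (SLC2A3, ALDOC, PGK1, PFKFB3, VEGFA and KDM3A) and 2 lower (PGAM1 and LDHA). Calls in a single comparison were common, at 54.8% of all tested genes in WT-labelled cells and 37.6% in KO-labelled cells. The share of all tested genes called the same way in both lines is not given here. Whether shared calls are more frequent in this set than elsewhere was therefore not tested.

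The remaining calls in KO-labelled cells were rises of HK1, HK2, ALDOA and PDK1 and a fall of BNIP3L. HK2 was at 9.16 and 8.13 FPKM and then 13.3 and 12, and rose by 0.50 ± 0.16 (adjusted p = 0.0380). HK1, the housekeeping hexokinase, was at 118 and 108 and then 136 and 128 (0.22 ± 0.07, adjusted p = 0.0375), and ALDOA was at 611 and 509.7 and then 715 and 686 (0.33 ± 0.09, adjusted p = 0.0187). PDK1 was at 5.10 and 5.44 and then 7.71 and 6.99 (0.41 ± 0.11, adjusted p = 0.0138). For these 4 genes both SET siRNA libraries lay above both control libraries. BNIP3L, which with BNIP3 marks mitochondria for removal, was at 51.2 and 56.8 and then 43.6 and 41.3, and fell by 0.34 ± 0.08 (adjusted p = 0.011). BNIP3 was at 17.8 and 16.8 and then 19.9 and 17.8 and did not pass. SLC2A1 was at 36.7 and 31.4 and then 28.6 and 25.8; the groups were apart, but the change did not pass (-0.31 ± 0.16, adjusted p = 0.164). GAPDH (1734 and 1470, then 1628 and 1477), TPI1, ENO1, PKM2, GPI and PFKL did not pass either. CA9 had the largest change of the 32, 0.91 ± 0.50, with an interval from -0.22 to 2.05.

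The 13 calls in KO-labelled cells come from 2 libraries per group, and leaving out a library of this line leaves 1 library in a group. With single libraries left out, the number of calls moved over all tested genes as well as in this set. The losses given below are therefore not shown to be particular to these genes. SLC2A3, LDHA, PFKFB3 and VEGFA were called in all 20 alternative settings. Without SET siRNA library 1 the calls of HK1 (adjusted p = 0.195), HK2 (0.171), ALDOA (0.0996), ALDOC (0.0947), PGK1 (0.307) and PDK1 (0.0932) were lost; without SET siRNA library 2 those of HK1 (0.0628), HK2 (0.0769), ALDOA (0.0552), PGAM1 (0.0576) and BNIP3L (0.0704) were lost. Without control library 2 the calls of HK1 (0.177), HK2 (0.160), ALDOA (0.108), ALDOC (0.0561), PGK1 (0.167) and BNIP3L (0.0668) were lost, and without control library 1 those of HK2 (0.0556), PGK1 (0.0594) and PDK1 (0.0548). Left-out WT-labelled libraries, which only enter the pooled spread, ended the calls of HK1 (0.0539 without SET siRNA library 1), HK2 (0.0508 without SET siRNA library 3) and PGK1 (0.0504 to 0.0639 without any of 5). KDM3A was lost only without library 1 of every group (0.0517).

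A difference between the 2 lines in their response was tested as an interaction, in which a negative value means a lower log2 change in WT-labelled than in KO-labelled cells. PGAM1 alone of the 32 was called, at -0.28 ± 0.05 (adjusted p = 0.00736): its mean with SET siRNA was 0.727 times the control mean in WT-labelled cells and 0.885 times in KO-labelled cells. Of all tested genes 19.1% were called, 10.5% higher and 8.60% lower. No gene of the set was called with a positive interaction. The interaction was negative, whatever its p, for 24 of the 32 (75%) and for 46.6% of all tested genes, and the median was -0.21 beside 0.03 over all. At an unadjusted p below 0.05 there were 12 of the 32, all of them negative. Over all 14813 tested genes, counted with all 10 libraries only, there were 5378, of which 2394 were negative and 2984 positive. Several enzymes had log2 changes near or under 0 in WT-labelled cells and above 0 in KO-labelled cells. ENO1 had values of -0.14 and 0.12 (interaction -0.27 ± 0.08, adjusted p = 0.0541) and GPI of -0.14 and 0.12 (-0.25 ± 0.09, adjusted p = 0.0788), where only the first ENO1 value had passed. HK2 had changes of -0.09 and 0.50 (-0.59 ± 0.21, adjusted p = 0.0772) and ALDOA of 0.00 and 0.33 (-0.32 ± 0.12, adjusted p = 0.0802), of which the second value of each had passed. None of these 4 interactions passed, so genes called in 1 line only are not shown to respond differently in the other. The KO-labelled control libraries weigh heavily here. Leaving out control library 1 of that line, or library 1 of every group, leaves 1 library in a KO-labelled group. In both settings the number of interactions called moved over all tested genes as well as in this set. Without library 1 of every group the PGAM1 interaction was still -0.28, but it was no longer called.

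Comparing the lines under control siRNA, 5 of the 32 genes were higher and 11 lower in KO-labelled cells. Of all tested genes 47.9% were called, 25.7% higher and 22.2% lower. The median log2 difference (KO-labelled minus WT-labelled) was -0.06 beside 0.02 over all, and the groups did not overlap for 21 of the 32, beside 63.1% of all genes. GAPDH had the largest difference, at 3184, 2949 and 3137 FPKM in WT-labelled and 1734 and 1470 in KO-labelled cells, a log2 difference of -0.95 ± 0.08 (adjusted p = 2.04e-05). TPI1, the isomerase that joins the 2 triose phosphates, was at 483, 445 and 488 and at 309.9 and 282 (-0.67 ± 0.06, adjusted p = 3.89e-05). ENO2, the neuronal enolase, was at 74.0, 62.3 and 72.5 and at 51.9 and 47.1 (-0.48 ± 0.10, adjusted p = 0.00352). All KO-labelled libraries lay below all WT-labelled ones for these 3 genes.

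GAPDH (chromosome 12, 6643656 to 6647536), TPI1 (6976583 to 6980110), ENO2 (7023613 to 7032859) and SLC2A3 (8071823 to 8088892) are neighbours in the coordinates of the files, whose genome build is not given in the sources used here. The 4 genes were each lower in KO-labelled control cells, SLC2A3 at 22.5 and 24.2 against 28.5, 26.7 and 25.8 FPKM (-0.20 ± 0.06, adjusted p = 0.0172). Between 5643656 and 9088892 on that chromosome, 58 other genes were tested; 45 were lower in KO-labelled control cells (77.6%) and 1 was higher, with a median of -0.63. Elsewhere on chromosome 12, 25.0% of 739 genes were lower, and on the other chromosomes 21.8%. With SET siRNA 37 of the 58 were lower (63.8%) and 2 higher, with a median of -0.52. The lower GAPDH, TPI1 and ENO2 in KO-labelled cells thus came with lower levels of most of their neighbours outside the pathway; position on the chromosome, the CRISPR line and p53 status cannot be told apart in this design. PFKM (from 48499655) and LDHB (from 21788274) lie further along chromosome 12 and did not pass in this comparison, and the other enzymes of the set lie on other chromosomes.

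Outside that stretch, PKM2 (chromosome 15) was at 1881, 1768 and 1831 FPKM in WT-labelled and 1414 and 1241 in KO-labelled control cells (-0.46 ± 0.06, adjusted p = 0.000401). SLC2A1 (chromosome 1) was at 58.1, 45.4 and 48.8 and at 36.7 and 31.4 (-0.56 ± 0.15, adjusted p = 0.0129). Both genes were lower in each KO-labelled library than in any WT-labelled one. HK1, PFKL, PFKP, ENO1 and ANKRD37 completed the 11 lower genes, with log2 differences from -0.33 to -0.18. The 5 higher genes were ALDOC, VEGFA, KDM3A, BNIP3L and PGAM1. ALDOC was at 6.91, 4.33 and 5.82 in WT-labelled and 11.4 and 11.1 FPKM in KO-labelled cells, 1.98 times the mean (log2 0.89 ± 0.16, adjusted p = 0.00164). VEGFA was at 27.3, 23.5 and 24.5 and at 34.9 and 34.0 (0.45 ± 0.06, adjusted p = 0.000482), and KDM3A at 17, 16.6 and 17.2 and at 22.7 and 23.4 (0.43 ± 0.06, adjusted p = 0.000301). ALDOC, VEGFA and KDM3A were also called higher with SET siRNA in each line, and these comparisons share control libraries. BNIP3L was at 40.8, 38.5 and 41.8 and at 51.2 and 56.8 (0.41 ± 0.08, adjusted p = 0.00208), and PGAM1 at 182, 179.7 and 179.7 and at 224 and 218 (0.29 ± 0.04, adjusted p = 0.000228).

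Several of the smaller differences were not called without KO-labelled control library 2. Leaving it out leaves 1 library in that group, and fewer genes were then called over all tested genes as well as in this set. The calls of SLC2A1 (log2 -0.45), HK1, PFKL, PFKP, ENO1 and ANKRD37 were lost. SLC2A3 was lost without KO-labelled control library 1. It was also lost without WT-labelled control library 1 (limma adjusted p = 0.0556), which also ended PFKL (0.122) and ENO1 (0.0587). PFKL was also lost without WT-labelled control library 2 (0.0726) or SET siRNA library 3 (0.0574). HK1 and ANKRD37 were lost in 13 of the 20 settings each. ANKRD37 overlaps UFSP2 over 698 bases and its interval half-width was 28.6 to 36.8% of FPKM. The calls of ALDOC, TPI1, GAPDH, PGAM1, ENO2, PKM2, VEGFA, BNIP3L and KDM3A were kept in all 20 settings.

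**Figure D4:**
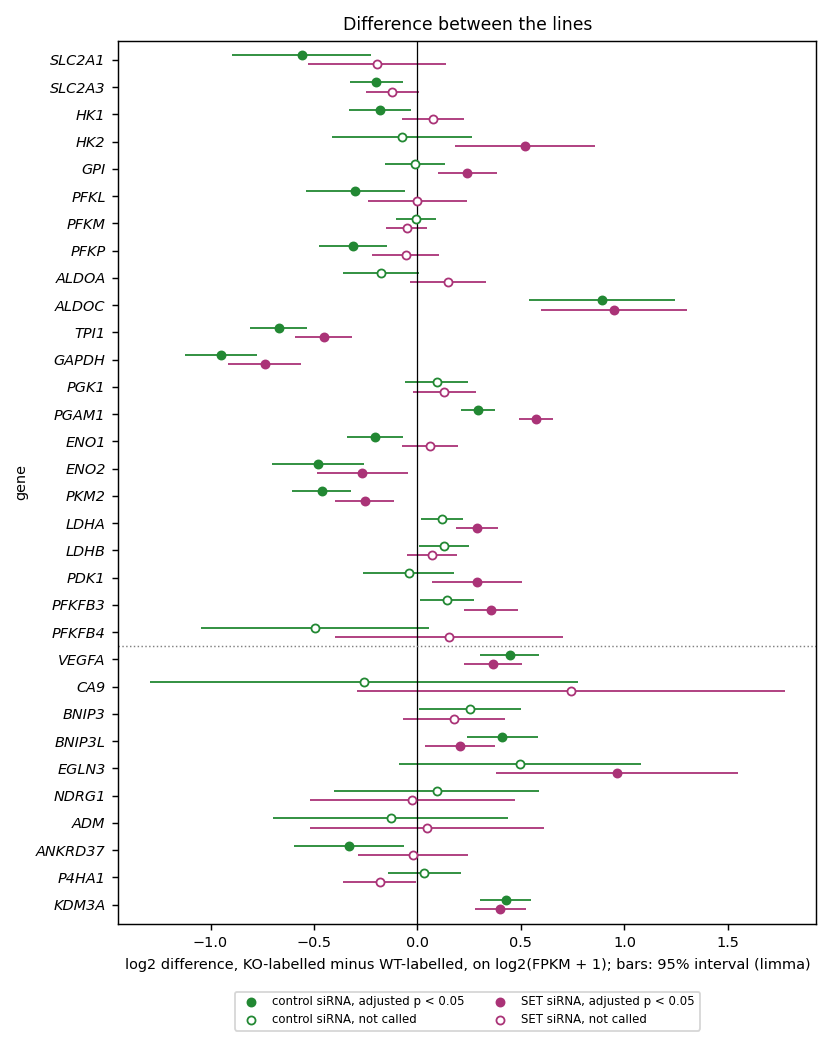
Log2 difference of FPKM + 1, KO-labelled minus WT-labelled cells, for the 32 genes under control siRNA and under SET siRNA, with 95% intervals from limma; filled points passed the test. GAPDH (-0.95 and -0.74) and TPI1 (-0.67 and -0.45) lie furthest to the left under each siRNA, and ALDOC lies at 0.89 and 0.95.

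Under SET siRNA 11 of the 32 genes were higher and 4 lower in KO-labelled than in WT-labelled cells. Of all tested genes 48.4% were called, 23.6% higher and 24.8% lower. The median difference was 0.10 beside -0.00 over all genes, and the groups did not overlap for 20 of the 32, beside 70.2% of all genes. The 4 lower genes were GAPDH (-0.74 ± 0.08, adjusted p = 5.74e-05), TPI1 (-0.45 ± 0.06, adjusted p = 0.000264), ENO2 (-0.27 ± 0.10, adjusted p = 0.0477) and PKM2 (-0.26 ± 0.06, adjusted p = 0.00834). GAPDH was at 2574, 2543 and 2652 FPKM in WT-labelled and at 1628 and 1477 in KO-labelled cells, and TPI1 at 429, 433 and 462 and at 327 and 317. PKM2 was at 1457, 1423 and 1459 and at 1249 and 1174, and ENO2 at 76.8, 63.4 and 67.0 and at 59.7 and 54.5. For each of the 4 every KO-labelled library was the lower.

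EGLN3, a prolyl hydroxylase that restrains HIF and is itself induced by it, had the largest positive difference. It was at 4.24, 1.8 and 2.27 FPKM in WT-labelled and at 7.06 and 5.23 in KO-labelled cells (0.96 ± 0.26, adjusted p = 0.0126). ALDOC was at 10.4, 8.24 and 8.97 and at 20.6 and 16.8 (0.95 ± 0.16, adjusted p = 0.000916). PGAM1 was at 131, 129.9 and 133 and at 197 and 193 (0.57 ± 0.04, adjusted p = 2.62e-06), and HK2 at 10.0, 7.56 and 8.10 and at 13.3 and 12 (0.52 ± 0.15, adjusted p = 0.0175). The KO-labelled libraries were all above the WT-labelled ones for these 4 genes. KDM3A, VEGFA, PFKFB3, LDHA, PDK1, GPI and BNIP3L were the other 7, with differences from 0.21 to 0.40. Without KO-labelled SET siRNA library 1 the calls of EGLN3 (0.78, adjusted p = 0.101), HK2 (0.45, 0.112), GPI (0.102), PDK1 (0.198), ENO2 (0.0746) and BNIP3L (0.228) were lost; without library 2 of that group those of PKM2 (0.0770), ENO2 (0.251), PDK1 (0.0604) and BNIP3L (0.0898) were lost. HK2 (0.0540), PDK1 (0.0900) and BNIP3L (0.129) were also lost without WT-labelled SET siRNA library 2, PDK1 (0.0705), ENO2 (0.0708) and BNIP3L (0.127) without WT-labelled SET siRNA library 3, and ENO2 (0.137) without WT-labelled SET siRNA library 1. Leaving out single WT-labelled control libraries ended ENO2 (0.0514 and 0.0571) and BNIP3L (0.0543 to 0.0623). ALDOC, TPI1, GAPDH, PGAM1, LDHA, PFKFB3, VEGFA and KDM3A were called in all 20 settings.

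Gene pairs that encode forms of the same protein are described by shares of their summed FPKM as a description, and the shares themselves were not tested. The transporter share is the widest shift. SLC2A1 made up 59.2 ± 3.92% in KO-labelled control cells (n = 2) and 41.0 ± 1.86% with SET siRNA (n = 2), beside 65.2 ± 2.10% and 42.3 ± 3.50% in WT-labelled cells. The ratio of SLC2A1 to SLC2A3 was 1.30 to 2.04 in the 5 control libraries and 0.645 to 0.856 in the 5 SET siRNA libraries. LDHA made up 44.4 ± 0.300% of lactate dehydrogenase in KO-labelled control cells and 38.8 ± 0.235% with SET siRNA. The LDHA to LDHB ratio was 0.769 to 0.832 in the 5 control libraries and 0.532 to 0.640 in the 5 SET siRNA libraries, lowest in WT-labelled cells.

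PFKL, PFKM and PFKP held 30.9, 33.9 and 35.2% of phosphofructokinase in WT-labelled control cells and 25.3, 39.6 and 35.1% with SET siRNA; the KO-labelled groups had 28.8, 38.8 and 32.4% and then 26.0, 39.3 and 34.7%. HK1 stayed between 91.1 and 94.2% of the 2 hexokinases in all 10 libraries. ALDOC rose from 0.888 ± 0.154% of aldolase in WT-labelled control cells to 2.60% in KO-labelled cells with SET siRNA, with 1.43 and 1.98% in the groups between. ENO2 held 3.96, 4.33, 3.28 and 3.46% of enolase. PFKFB3 held 61.2, 63.8, 71.9 and 67.1% of the PFKFB pair, with a spread of up to 6.18 percentage points, since PFKFB4 varied with the library number: 14.7, 8.67 and 10.8, then 14.7, 8.93 and 11 FPKM in WT-labelled cells, and 9.06 and 6.35, then 14.6 and 11 in KO-labelled cells. BNIP3 held 26.3, 31.1, 24.3 and 30.7% of the BNIP3 and BNIP3L sum, with the higher group mean under SET siRNA in each line.

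**Figure D5:**
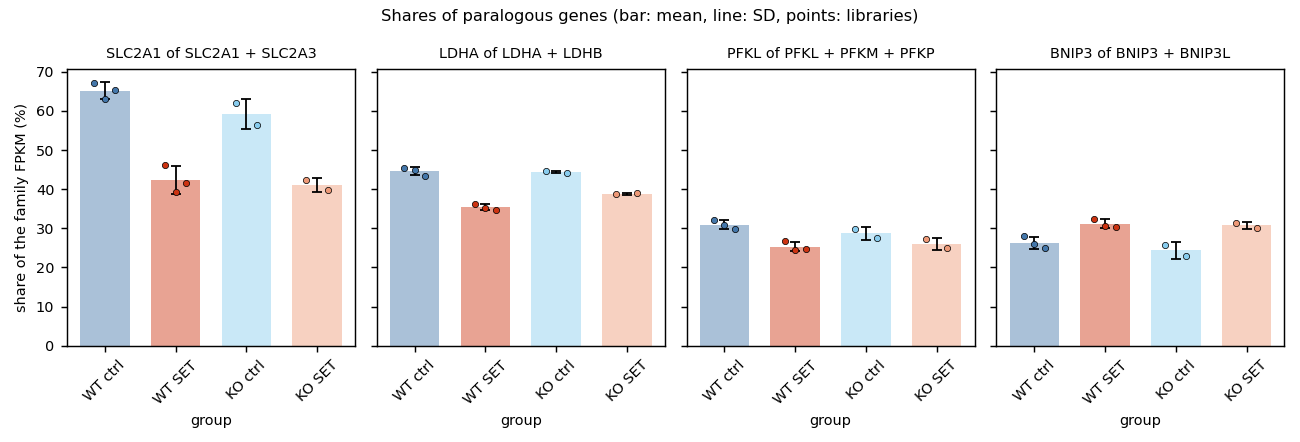
Share of the summed FPKM of each family (percent) held by 1 of its genes, 1 point per library, grouped by line and siRNA. The SLC2A1 and LDHA shares are lower in all 5 SET siRNA libraries than in all 5 control libraries, at 42.3 against 65.2% and 35.3 against 44.6% (group means) in WT-labelled cells.

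Of the hypoxia genes not yet given, P4HA1, a collagen prolyl hydroxylase, stayed between 35.1 and 47.1 FPKM and passed no test. ADM, which encodes the vasodilator adrenomedullin, was at 3.13 ± 1.38 and 4.17 ± 1.23 FPKM in WT-labelled cells and at 2.65 ± 0.331 and 4.24 ± 0.179 in KO-labelled cells, and passed none either, with an interval half-width of 18.4 to 32%. BNIP3 was at 14.4 ± 1.31, 16.7 ± 2.36, 17.3 ± 0.702 and 18.9 ± 1.53 in the 4 groups, and NDRG1 at 51.7 ± 11.5, 69.2 ± 19.4, 54.5 ± 6 and 66.4 ± 5.16. Neither was called in any comparison. VEGFA and KDM3A were thus the 2 of 10 that rose with SET siRNA in each line, while CA9, ADM and NDRG1 passed no test. Over all tested genes 30.8% were called higher in WT-labelled and 19.8% in KO-labelled cells.

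Genes around the pathway came from lists of 28 other glycolysis and pyruvate genes, 13 genes of HIF and oxygen sensing, 33 other hypoxia genes and 7 pentose phosphate genes that were tested. With SET siRNA in WT-labelled cells, 8 of the 28 rose and 4 fell, 6 of the 13 rose and 1 fell, 10 of the 33 rose and 16 fell, and 3 of the 7 fell with none rising. In KO-labelled cells these were 5 and 5, 2 and 0, 6 and 8, and 1 and 3. The shares over all tested genes were 30.8% higher and 24.0% lower in WT-labelled cells and 19.8 and 17.9% in KO-labelled cells, and the counts are to be read against these. C12orf5 (TIGAR, a p53 target that breaks down the activator of phosphofructokinase) had group means of 11.8, 26.1, 3.91 and 3.39 FPKM. Its symbol names chromosome 12, and its distance from the stretch described above was not examined. For its lower level in KO-labelled cells, position on the chromosome, the CRISPR line and p53 status cannot be told apart. C12orf5 rose by 1.08 in WT-labelled cells (adjusted p = 9.8e-07), with an interaction of 1.25 (adjusted p = 0.00012). Every change given for a gene of these lists had passed the test unless the contrary is said. PFKFB2, a further PFKFB form, rose in WT-labelled (0.59) and KO-labelled cells (0.39) as PFKFB3 did.

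EPAS1 (HIF-2 alpha) went from 6.76 to 13.4 FPKM in WT-labelled and from 5.53 to 9.34 in KO-labelled cells, rising by 0.89 and 0.66, while HIF1A means stayed between 75.0 and 83.7 FPKM. CITED2, which competes with HIF for its coactivator, rose by 0.72 and 0.20. EGLN1, the main prolyl hydroxylase of HIF, fell by 0.45 in WT-labelled cells and did not pass in KO-labelled cells (-0.20, adjusted p = 0.0731). Among the other hypoxia genes the stress enzyme HMOX1 rose by 0.77 and 0.69 and BHLHE40 by 0.61 and 0.65, whereas CA12, a relative of CA9, fell by 1.07 and 0.71. GBE1, the glycogen branching enzyme, fell by 0.40 in WT-labelled and by 0.89 in KO-labelled cells. Between the lines under control siRNA, 12 of the 28 were higher and 6 lower, 4 and 3 of the 13, 9 and 8 of the 33, and 1 and 1 of the 7; under SET siRNA these were 7 and 5, 3 and 3, 14 and 10, and 4 and 2. In the interaction 4 of the 28 were higher and 1 lower, 2 and 0 of the 13, 5 and 4 of the 33, and 0 and 2 of the 7. Over all tested genes the shares higher and lower were 25.7 and 22.2% under control siRNA, 23.6 and 24.8% under SET siRNA, and 10.5 and 8.60% in the interaction.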

How the data were processed

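FPKM tables of 10 libraries from a U2OS line pair were the only measurements used. RNA came from Trizol extraction and TruSeq preparation, per the labels' protocols. The submitters' processing notes name bcl2fastq 1.8.4, TopHat2 2.0.4 and Cufflinks 2.0.2. The authors deposited FPKM, with an interval and a status for each gene per the file headers. For genome build, annotation and strand setting the entry is "not given in the sources used here". Depth was estimated from the authors' intervals, so it is approximate and no count test was made.

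The filter asked for FPKM 1 or more in 2 or more libraries and passed 14813 of 25593 entries. On log2(FPKM + 1), limma 3.58.1 (R 4.3.3) estimated 4 group means from the 10 libraries, with a trended prior variance. Each adjusted p is limma's, after Benjamini-Hochberg over all tested genes, and 0.05 was the threshold. The 5 contrasts of that model were the siRNA effect in WT-labelled cells, the same in KO-labelled cells, the gap between those effects, and the line difference under either siRNA. The 45 entries that repeat a symbol touched no gene named here. Scripts were tested on simulated data. Other steps used Python 3.11.15, numpy 2.4.6, pandas 2.3.3 and matplotlib 3.10.9.

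The genes and all lists were chosen with earlier results of these data known. All 32 genes could be named. Values per library are given for called genes with the largest changes (up to 5 in each direction per siRNA comparison, 4 in the others) and for families of related forms. From each other list up to 3 called genes per direction could be named. Some results that this rule selects are left out. SET and CDKN1A were checks of the labels. Alternatives were a pseudocount of 0.1, no filter, a mean FPKM of at least 5, median-of-ratios or quantile scaling, a fit restricted to the compared libraries, the library number as a block, an untrended variance, array weights, and leaving out each library. Leaving out library 1 of every group was added after seeing the data. Promoters came from RefSeq (GRCh38.p14), and their coordinates were not mixed with those of the files.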

Additional observations from a re-analysis of the deposited data

Results flagged for a closer look

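PGAM1 responded differently to SET siRNA in the 2 lines by a direct test of that difference: the interaction was -0.28 (log2, WT-labelled response minus KO-labelled response; limma adjusted p = 0.00736). PGAM1 fell in all 3 WT-labelled SET siRNA libraries (129.9 to 133 FPKM, controls 179.7 to 182) and in the 2 KO-labelled SET siRNA libraries (193 and 197 FPKM, controls 218 and 224). The call was lost without library 1 of every group (-0.28, adjusted p = 0.110) and kept in the 18 other settings that give an interaction.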

How the results depend on the processing

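No change or difference of the 32 genes that was called changed sign under any of the 20 alternatives. Of 59 calls over the 5 comparisons, 30 were kept in all 20, namely 9 of 14 and 4 of 13 for SET siRNA in WT-labelled and KO-labelled cells, 0 of 1 for the interaction, and 9 of 16 and 8 of 15 for the lines under control and SET siRNA. For SET siRNA in KO-labelled cells, fitting only the libraries compared called 3631 of all genes in place of 5571, and array weights called 8 of the 32 in place of 13. For the lines under control siRNA array weights called 10 of the 32 in place of 16. For the interaction a mean FPKM of at least 5, median-of-ratios scaling and quantile normalization each called 2 of the 32 in place of 1; the cause was not tested for any of these. With single libraries left out, SET siRNA in WT-labelled cells called 6980 to 8672 of all genes and 11 to 15 of the 32, and in KO-labelled cells 3442 to 5816 and 7 to 14. The interaction called 1136 to 4587 and 1 to 9. The lines differed at 4785 to 7533 and 10 to 17 under control siRNA and at 5149 to 7684 and 10 to 15 under SET siRNA. The lowest count of the 32 came without WT-labelled control library 2 or SET siRNA library 3 (11), KO-labelled SET siRNA library 1 (7 and, between lines under SET siRNA, 10) and KO-labelled control library 2 (10), and the highest interaction counts without KO-labelled control library 1. Without library 1 of every group the 5 comparisons, in this order, called 6272, 2807, 137, 5468 and 4658 of all genes and 14, 8, 0, 15 and 12 of the 32. With the library number as a replicate block the interaction called 11 of the 32, all negative, in place of 1. Same-numbered libraries did not deviate together over all genes (correlations of -0.08, -0.03 and 0.07 in WT-labelled and 0.00 in KO-labelled cells, across genes, which are not independent), so the number was not taken to pair the libraries, although library 1 was highest in every group for 37.5% of the 32 genes. Scaling moved the median of all genes by at most 0.04 on the log2 scale. Depth limits CA9, ADM, ANKRD37 and EGLN3 most, and 2 libraries per group limit every result on the KO-labelled line.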
